A study of Mus musculus with 23 samples.

Results

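The genes described here encode subunits of the transcription factor AP-1: Fos, Fosb and Fosl2 of the FOS family, Jun, Junb and Jund of the JUN family, and the related Atf3. They were chosen by symbol, and all 7 were found among the 52636 genes counted. The data are 23 RNA-seq libraries of whole hippocampus from mice of a mixed C57Bl6 and Balbc background. The P301S genotype, named for a mutation of human tau, was sequenced in hypoxia (6 libraries) and in normoxia (5 libraries), and WT likewise in hypoxia (6 libraries) and in normoxia (6 libraries). According to the series title the exposure was chronic and intermittent. The sources used here do not give its regimen, the promoter of the transgene, the hour of collection or the age and sex of the mice. Nothing in the labels ties each library to its own animal, and p-values therefore describe the spread among libraries.

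AP-1 is a DNA-binding dimer whose subunits pair through leucine zippers. FOS proteins need a JUN partner, whereas JUN proteins also pair among themselves and with ATF proteins such as ATF3. In hippocampal neurons Fos, Fosb and Junb are immediate early genes, switched on within minutes by synaptic activity through calcium and MAP kinase signals acting on CREB at cAMP response elements (CRE) and on SRF at serum response elements.

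Fos, Fosb and Junb were the 3 genes called lower in the mean hypoxia effect below, and the 150 bases before the start of each are shown for that reason. They are RefSeq sequences of GRCm38.p6, written 5′ to 3′ on the strand of the gene, at chr12:85473740-85473889 (+) for Fos, chr7:19310046-19310195 (−) for Fosb and chr8:84978749-84978898 (−) for Junb. Capitals mark the CRE half-site TGACG and the TATA box TATAAA.
Fos: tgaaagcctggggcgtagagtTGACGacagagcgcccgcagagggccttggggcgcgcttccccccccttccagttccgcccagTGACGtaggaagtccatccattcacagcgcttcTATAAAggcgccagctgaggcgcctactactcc
Fosb: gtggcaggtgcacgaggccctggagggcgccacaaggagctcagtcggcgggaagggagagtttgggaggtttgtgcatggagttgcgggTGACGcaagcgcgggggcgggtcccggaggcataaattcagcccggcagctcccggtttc
Junb: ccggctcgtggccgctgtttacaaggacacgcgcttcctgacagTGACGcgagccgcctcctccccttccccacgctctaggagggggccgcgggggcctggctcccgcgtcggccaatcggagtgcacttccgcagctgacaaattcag

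All 7 genes matched a RefSeq promoter, and motifs were searched in the 250 bases before the start. Fos held 2 half-sites, with their first base at −129 and −66, and a TATA box with its first base at −33. Fosb held 1 half-site at −60 and Junb held 1 at −106. Atf3 held 1 on the opposite strand, at −7 to −3, and Fosl2, Jun and Jund held none. The half-site, searched on both strands, was present in 17.8% of 32851 mouse promoters of that length, and TATAAA, searched on the sense strand, in 7.59%. No member held the full CRE TGACGTCA (1.55% of promoters) or the AP-1 site TGACTCA (4.46%). Relative to the 5′ end of the counted gene, the RefSeq start lay at −1210 bases for Jund, 671 bases for Fosl2 and 34706 bases for Atf3, so these 3 windows are not the 5′ ends of the counted genes.

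Reads were counted over whole genes, introns included, and are given as CPM, the count scaled to the library's total. Libraries held 19.1 to 25.8 M counts each. All 12 hippocampal markers checked were present in all libraries, the lowest at 18.8 CPM. The libraries differed in markers of the choroid plexus, which lines the ventricle beside the hippocampus. The summed level of 14 of its 15 listed markers was 286 to 3934 CPM in P301S hypoxia, 1143 to 5296 in P301S normoxia, 306 to 4714 in WT hypoxia and 263 to 5498 in WT normoxia, and its carrier protein gene Ttr was not at 0 in any library. The 6 libraries with the lowest scores were P301S hypoxia replicates 1 and 4, WT hypoxia replicates 1, 4 and 5 and WT normoxia replicate 4. Results are given without these 6 libraries wherever that ends the call of a gene named here. In bulk tissue, fewer cells of a type and less RNA per cell cannot be told apart.

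The 7 genes spanned a wide range of levels. On the CPM scale over 23 libraries, Jun (chr4:95049034-95052222) averaged 77.9 ± 12.1 and Fosl2 (chr5:32135801-32157842), which encodes FRA-2, averaged 64.4 ± 11.6 (SD). Junb (chr8:84974484-84978718) averaged 32.7 ± 7.29 CPM, Fos (chr12:85473890-85477273) 11.1 ± 5.25 and Fosb (chr7:19302696-19310051) 8.5 ± 2.07. Jund (chr8:70698949-70700616) averaged 2.4 ± 0.556 CPM and Atf3 (chr1:191170296-191218039) 0.867 ± 0.233, on 1327 and 477 counts in all, so both are imprecise. Coordinates are those of the count files, on GRCm38.

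Levels of different genes are compared per kilobase of the gene that no other gene overlaps. Jun stood highest at 31.2 ± 4.85 CPM per kb and Junb second at 8.41 ± 1.88 CPM per kb (SD, n = 23). Fos at 3.27 ± 1.55, Jund at 3.2 ± 0.743 and Fosl2 at 2.92 ± 0.525 CPM per kb lay within each other's spread. Fosb followed at 1.16 ± 0.281 and Atf3 was last at 0.0182 ± 0.00488 CPM per kb. Per kilobase of exon, the order became Jun, Junb, Fosl2, Fos, Jund, Fosb and Atf3. Counting dropped reads over more than 1 gene on either strand. This removed 55.1% of Jund, under the antisense Gm11175, 21.6% of Jun, under the antisense Junos, and 8.29% of Junb, under Prdx2. Counts are per gene, so the spliced forms of Fosb, which include the stable ΔFosB, were not separated.

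**Figure D1:**
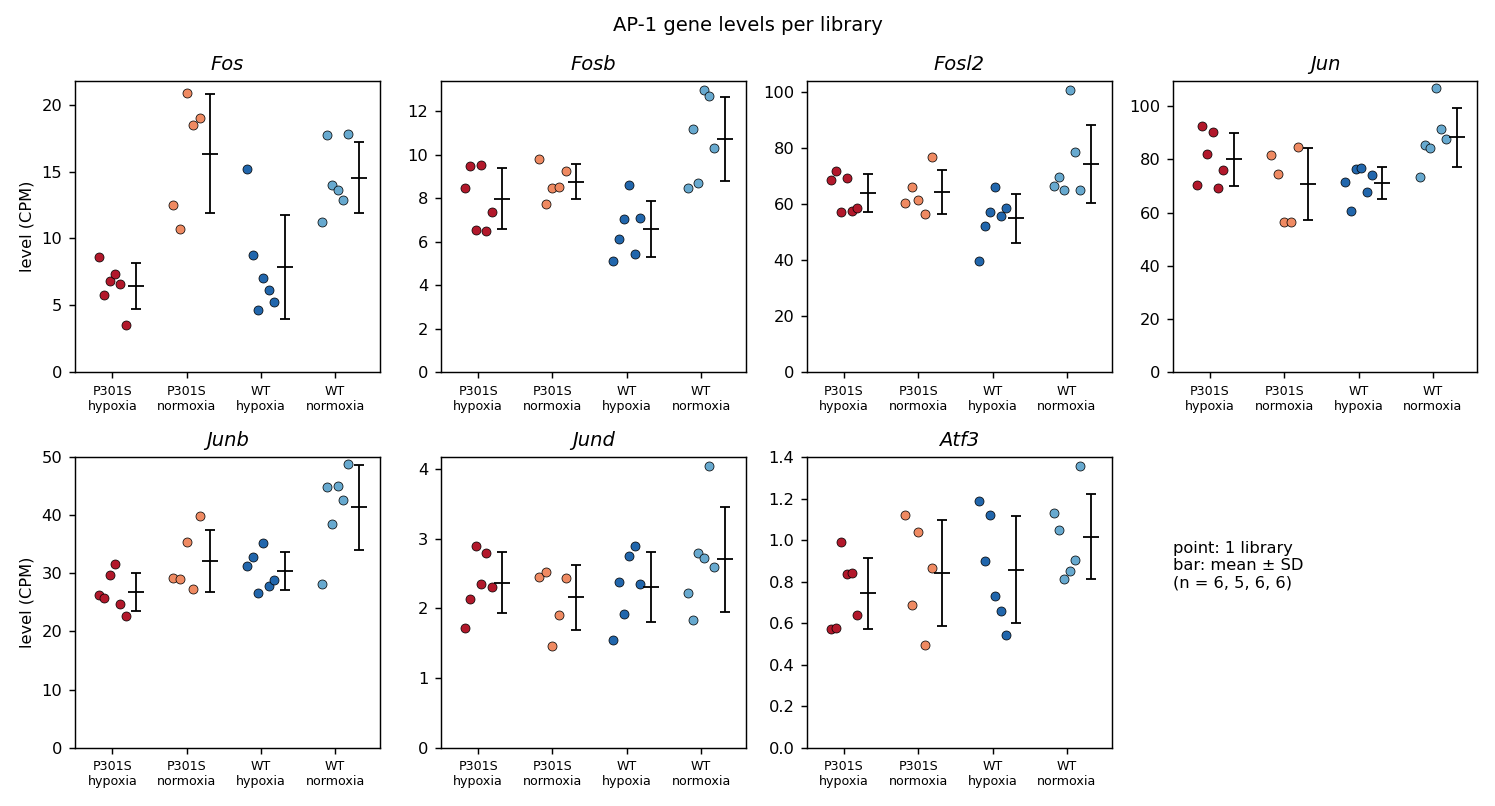
Level of each AP-1 gene in CPM (vertical axes from 0, different per gene) in each of the 23 libraries, by group. Points are libraries and bars show the mean ± SD (n = 6 P301S hypoxia, 5 P301S normoxia, 6 WT hypoxia, 6 WT normoxia). The 6 P301S hypoxia libraries for Fos, at 3.51 to 8.61, all lie below the 5 P301S normoxia libraries, at 10.7 to 20.9.

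In P301S hippocampus, Fos was lower in hypoxia than in normoxia and was the 1 member of 7 that was called. The other FOS and JUN genes did not pass the test. A gene was called at a Benjamini-Hochberg adjusted p below 0.05 in edgeR's quasi-likelihood test over 17788 genes, and 0.41% of all tested genes were called in this comparison, 0.23% as lower and 0.18% as higher. Fos, whose protein is the classic readout of neuronal activity, ran from 3.51 through a median of 6.68 to 8.61 CPM in P301S hypoxia, against 12.5, 10.7, 20.9, 18.5 and 19 CPM in P301S normoxia. The groups did not overlap, which was so for 2.13% of all tested genes. Its mean was 6.44 ± 1.71 CPM in P301S hypoxia (SD, n = 6) and 16.3 ± 4.47 CPM in P301S normoxia (SD, n = 5). The log2 fold change was −1.34 (SE 0.249, adjusted p = 0.021), a ratio of 0.394. The call was lost without P301S normoxia replicate 3 (−1.24, adjusted p = 0.0819) or without P301S normoxia replicate 4 (−1.30, adjusted p = 0.0719), and was kept in the other 21 fits that left out 1 library. It was also kept without the 6 libraries lowest in choroid plexus markers, at −1.52 (adjusted p = 0.0318).

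Junb, which pairs with FOS proteins and restrains JUN activity in some settings, ran from 22.6 through a median of 26 to 31.5 CPM in P301S hypoxia, against 29.1, 29, 35.3, 27.3 and 39.9 CPM in P301S normoxia. The groups overlapped, and 4 of the 6 hypoxia libraries lay below the lowest normoxia library. The log2 fold change was −0.26 (SE 0.121, adjusted p = 0.333).

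Jun, the most abundant member, ran from 69.1 through a median of 79.1 to 92.7 CPM in P301S hypoxia, against 81.8, 74.4, 56.3, 56.6 and 84.7 CPM in P301S normoxia. The log2 fold change was 0.18 (SE 0.11, adjusted p = 0.483), and 2 hypoxia libraries lay above the highest normoxia library. Fosb ran from 6.49 through a median of 7.93 to 9.53 CPM in P301S hypoxia, against 9.81, 7.73, 8.45, 8.51 and 9.26 CPM in P301S normoxia. Its log2 fold change was −0.13 (SE 0.139, adjusted p = 0.702). Fosl2 stood at 64 ± 6.79 CPM in P301S hypoxia and 64.2 ± 7.85 CPM in P301S normoxia (SD), a log2 difference of −0.01 with a 95% interval from −0.24 to 0.23. Jund at 0.14 and Atf3 at −0.16 had intervals from −0.24 to 0.52 and from −0.63 to 0.30, so neither a modest rise nor a modest fall was detectable. The median log2 fold change of the 7 members was −0.13, beside −0.003 over all genes.

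Markers of the dentate granule cell, the neuron type of the dentate gyrus, had a summed level of 629 to 841 CPM in P301S hypoxia and 521 to 681 CPM in P301S normoxia (10 of 10 markers measured, none at 0 in any library). Their part in the Fos result was not tested.

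In WT hippocampus all 7 members had negative log2 fold changes for hypoxia over normoxia, and Fosb was the 1 that was called. Over all genes, 0.0731% were called in this comparison, 0.045% as lower, and 48.6% of tested genes had a negative value. The median of the 7 was −0.43, beside 0.004 over all genes, and 5 of the 7 had an unadjusted p below 0.05, beside 11.6% of all genes. Fosb, whose protein products accumulate in hippocampal neurons after repeated activity, ran from 5.12 through a median of 6.58 to 8.61 CPM in WT hypoxia and from 8.47 through 10.8 to 13 CPM in WT normoxia. The groups touched at 1 library, with 5 of the 6 hypoxia libraries below the lowest normoxia library. Its mean was 6.57 ± 1.29 CPM in WT hypoxia and 10.7 ± 1.95 CPM in WT normoxia (SD, n = 6 each). The log2 fold change was −0.71 (SE 0.134, adjusted p = 0.0428), a ratio of 0.613.

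The Fosb call in WT was lost in 13 of the 23 fits that left out 1 library, at adjusted p of 0.0502 to 0.121 with log2 fold changes of −0.73 to −0.65. The libraries were WT hypoxia replicates 1, 2, 3, 5 and 6, WT normoxia replicates 2, 4, 5 and 6, P301S hypoxia replicates 1, 5 and 6 and P301S normoxia replicate 3. It was also lost with only the WT libraries in the fit (−0.71, adjusted p = 0.171) and without the 6 libraries lowest in choroid plexus markers (−0.60, adjusted p = 0.56), where 0 of all genes were called. With a covariate for the choroid plexus score the Fosb call was kept (−0.77, adjusted p = 0.0222). Numbers in the sample titles differ between the conditions in both genotypes. In WT they are 31 and 32 in hypoxia and 66 and 37 in normoxia. In P301S each library has its own, from 12 to 41 in hypoxia and from 43 to 65 in normoxia. Whatever these numbers stand for and hypoxia cannot be told apart in either genotype.

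Fos in WT ran from 4.64 through a median of 6.61 to 15.2 CPM in hypoxia and from 11.2 through 13.8 to 17.8 CPM in normoxia. Of the 6 hypoxia libraries 5 lay below every normoxia library, and replicate 1 at 15.2 CPM lay among them. That library also had the fewest counts (19.1 M) and was among the 6 lowest in choroid plexus markers. The log2 fold change was −0.91 (SE 0.24, adjusted p = 0.124). Without WT hypoxia replicate 1 it was −1.19 (adjusted p = 0.0473), which passed the threshold.

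Fosl2 ran from 39.7 through 56.6 to 66.1 CPM in WT hypoxia and from 65.1 through 68.2 to 101 CPM in WT normoxia. Again 5 of 6 hypoxia libraries lay below every normoxia library, and the log2 fold change was −0.43 (SE 0.114, adjusted p = 0.123). The extremes were WT hypoxia replicate 1, the lowest, and WT normoxia replicate 4, the highest, and both were poor in choroid plexus markers. Also poor in them were WT hypoxia replicate 4, the highest of its group at 66.1 CPM, and replicate 5 at 55.7 CPM. With a covariate for the choroid plexus score the Fosl2 value was −0.51 (adjusted p = 0.0551). Without the 6 libraries lowest in these markers it was −0.29 (adjusted p = 0.78).

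Junb ran from 26.6 through 30 to 35.1 CPM in WT hypoxia and from 28.2 through 43.7 to 48.7 CPM in WT normoxia, with a log2 fold change of −0.44 (SE 0.115, adjusted p = 0.122). The overlap rested on WT normoxia replicate 1 at 28.2 CPM. Without that library the fold change was −0.53 (adjusted p = 0.0345). Jun ran from 60.6 through 72.9 to 76.7 CPM in WT hypoxia and from 73.4 through 86.6 to 107 CPM in WT normoxia, with a log2 fold change of −0.31 (SE 0.105, adjusted p = 0.231). Jund at −0.23 and Atf3 at −0.25 had 95% intervals that included 0. With DESeq2 in place of edgeR, 4 members passed in WT: Fos, Fosb, Fosl2 and Junb. Over all genes DESeq2 called 151 in this comparison, against 13 by edgeR.

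The summed level of the FOS genes was 69.4 ± 7.13 CPM in WT hypoxia and 99.6 ± 15.1 CPM in WT normoxia, with ranges of 60 to 81.8 and 86.2 to 127 CPM. In P301S it was 78.4 ± 8.9 CPM in hypoxia and 89.3 ± 9.42 CPM in normoxia. The JUN genes summed to 104 ± 6.57 CPM in WT hypoxia and 132 ± 17 CPM in WT normoxia, and to 109 ± 12 CPM in P301S hypoxia and 105 ± 16.3 CPM in P301S normoxia (SD). Fosl2 and Jun make up most of these sums, which were not tested.

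Whether hypoxia acted differently in the genotypes was tested as an interaction, the hypoxia effect in P301S minus that in WT. Of the 7 members 0 were called by edgeR and 0 by DESeq2. Over all genes edgeR called 0.0394% and DESeq2 called 52 genes. At an unadjusted p below 0.05 there were 3 members, beside 9.43% of all genes. The interaction log2 value was 0.49 for Jun (SE 0.152, unadjusted p = 0.00378, adjusted p = 0.331), 0.57 for Fosb (SE 0.193, adjusted p = 0.353) and 0.43 for Fosl2 (SE 0.165, adjusted p = 0.406). The hypoxia values behind these were 0.18 in P301S and −0.31 in WT for Jun, −0.13 and −0.71 for Fosb, and −0.01 and −0.43 for Fosl2. For Fos the interaction was −0.43 with a 95% interval from −1.11 to 0.25 (adjusted p = 0.741), and for Junb 0.18 with one from −0.15 to 0.51. Neither the Fos call in P301S nor the Fosb call in WT was thus shown to differ between the genotypes.

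Averaged over both genotypes, 3 members were lower in hypoxia than in normoxia: Fos, Fosb and Junb. Over all genes 1.33% were called for the mean hypoxia effect, 0.675% as lower and 0.652% as higher. Fos had a log2 value of −1.13 (SE 0.173, adjusted p = 0.00225) and kept its call in each of the 23 fits that left out 1 library. Without the 6 libraries lowest in choroid plexus markers it stood at −1.38 (adjusted p = 0.00405). Fosb had −0.42 (SE 0.0965, adjusted p = 0.0304) and Junb −0.35 (SE 0.0834, adjusted p = 0.0351). Without those 6 libraries Fosb was at −0.41 (adjusted p = 0.0917) and Junb at −0.39 (adjusted p = 0.128), and neither was called. With all 23 libraries and a covariate for the choroid plexus score, both were called. Fosb was then at −0.48 (adjusted p = 0.024) and Junb at −0.41 (adjusted p = 0.0284).

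Leaving out 1 library took the Fosb call away in 7 of 23 fits, at −0.43 to −0.39 and adjusted p of 0.0507 to 0.0564. These were the fits without WT hypoxia replicate 5, WT normoxia replicate 5, P301S hypoxia replicates 3 and 6 and P301S normoxia replicates 3, 4 and 5. Junb lost its call in 10 fits, at −0.35 to −0.31 and adjusted p of 0.0509 to 0.0795. These left out WT hypoxia replicates 3, 5 and 6, WT normoxia replicates 2, 5 and 6, P301S hypoxia replicates 5 and 6 and P301S normoxia replicates 3 and 5. Fosl2 at −0.22 (adjusted p = 0.185), Atf3 at −0.21, Jun at −0.07 and Jund at −0.05 were not called.

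**Figure D2:**
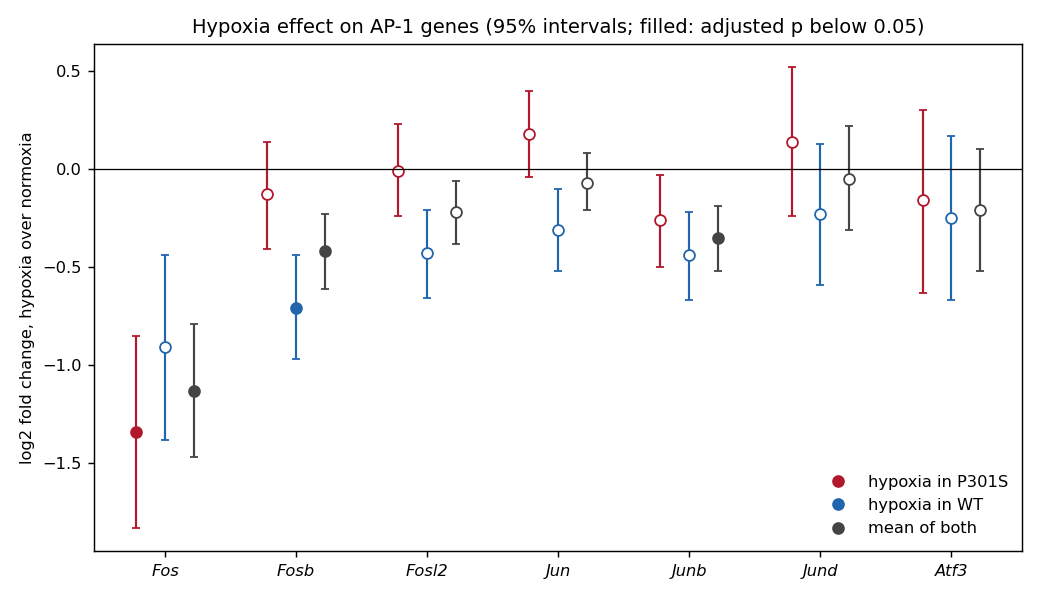
Log2 fold change of each AP-1 gene for hypoxia over normoxia (vertical axis) in P301S, in WT and as the mean of both, with 95% intervals. Filled points had an adjusted p below 0.05. Fos is lowest in P301S at −1.34, and Fosb in WT stands at −0.71 against −0.13 in P301S.

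The genotypes were compared within each oxygen condition and on average. In normoxia, 0 of the 7 were called between P301S and WT by edgeR, and 3 had an unadjusted p below 0.05 beside 22.8% of all genes. By edgeR 6.35% of all genes were called, 2.57% as higher and 3.78% as lower. DESeq2 called 2 of the 7 (Jun and Junb), and 1639 of all genes against 1130 by edgeR. Junb ran over the 5 P301S normoxia libraries given above from 27.3 to 39.9 CPM, against 28.2 to 48.7 CPM in WT normoxia, with a log2 fold change of −0.36 (SE 0.12, adjusted p = 0.0709). Jun ran from 56.3 to 84.7 CPM in P301S normoxia, against 73.4 to 107 CPM in WT normoxia, with −0.32 (SE 0.11, adjusted p = 0.0831). Junb passed without WT normoxia replicate 1 (−0.45, adjusted p = 0.008) or P301S normoxia replicate 5 (−0.45, adjusted p = 0.0434). Jun passed without WT normoxia replicate 1 (−0.37, adjusted p = 0.0349) or P301S normoxia replicate 1 (−0.38, adjusted p = 0.0343), and with a covariate for the choroid plexus score (−0.34, adjusted p = 0.0405). Fosb was at −0.30 (adjusted p = 0.19) and Fos at 0.17 (adjusted p = 0.712).

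In hypoxia, 0 of 7 were called between P301S and WT by edgeR, 0 by DESeq2 and 0 at an unadjusted p below 0.05 beside 18.2% of all genes. By edgeR 1.87% of all genes were called, 0.528% as higher and 1.34% as lower, and DESeq2 called 854 genes. Fosb had a log2 value of 0.28 (95% normal interval 0.01 to 0.55, unadjusted p = 0.0572, adjusted p = 0.293). Its interval leaves out 0 because normal intervals are narrower than the quasi-likelihood test implies. Fosl2 was at 0.22 (adjusted p = 0.325) and Fos at −0.26 (adjusted p = 0.654). The genotype comparisons share libraries with the hypoxia comparisons above. In the mean P301S effect over both conditions Junb alone of the 7 was called, at −0.27 (SE 0.0836, adjusted p = 0.034), where 13.1% of all genes were called, 7.76% as lower and 5.35% as higher. One call among 7 is close to that background. The Junb call was lost without WT hypoxia replicates 2 or 4, WT normoxia replicate 6 or P301S normoxia replicates 2 or 4, at −0.26 to −0.25 and adjusted p of 0.0549 to 0.0701. It was also lost when a trend with gene length and GC content was removed (−0.17, adjusted p = 0.272) and without the 6 libraries lowest in choroid plexus markers (−0.27, adjusted p = 0.12). With a covariate for the choroid plexus score the Junb call was kept (−0.28, adjusted p = 0.0239).

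Other immediate early genes were set beside the members, with 19 of 20 measured. In the mean hypoxia effect 6 were called lower and 0 higher, with a median log2 value of −0.23. Over all genes 0.675% were called lower there and 0.652% higher. Egr2, a zinc-finger factor, was at −1.36 (SE 0.199, adjusted p = 0.00103) and Arc, which controls the traffic of AMPA receptors, at −0.77 (SE 0.123, adjusted p = 0.00396). The nuclear receptor gene Nr4a1 was at −0.50 (SE 0.0789, adjusted p = 0.00295) and its relative Nr4a3 at −0.29 (SE 0.0691, adjusted p = 0.035). The zinc-finger factor Egr1 was at −0.43 (SE 0.0945, adjusted p = 0.0261) and the antiproliferative gene Btg2 at −0.24 (SE 0.0555, adjusted p = 0.0324). Egr2, Arc and Nr4a1 kept this call in all 31 other fits tried, Egr1 in 30, and Nr4a3 and Btg2 in 22 each. Nr4a3 (adjusted p = 0.11) and Btg2 were among those not called without the 6 libraries lowest in choroid plexus markers.

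In P301S alone, 3 of the 19 were called lower, where 0.23% of all genes were. They were Egr2 at −1.34, Arc at −0.85 and Nr4a1 at −0.57 (adjusted p = 0.0399, 0.0436 and 0.0286). DESeq2 called 2 of the 19, and 363 of all genes. Each of the 3 lost its edgeR call in 7 or 8 of the fits without 1 library. Egr2 also lost it without the 6 libraries lowest in choroid plexus markers. In the main edgeR fit 0 were called in WT, where 0.0731% of all genes were. At an unadjusted p below 0.05 there were 11, 10 of them lower, beside 11.6% of all genes. DESeq2 called 8 of the 19 lower, and 151 of all genes against 13 by edgeR. With a covariate for the choroid plexus score edgeR called 2 of the 19 lower in WT, and 15 of all genes. With a trend with gene length and GC content removed it called 1, and 19 of all genes. Fits without 1 library called 0 to 2 lower. The WT values were −1.39 for Egr2, −0.69 for Arc and −0.42 for Nr4a1. Egr3 at 0.29 (adjusted p = 0.0482) and Homer1, a scaffold of the postsynaptic density, at 0.30 (adjusted p = 0.0458) were higher in P301S than in WT under hypoxia. These were 2 of 19, where 1.87% of all genes were called. Each lost the call in 15 of the 23 fits without 1 library, and without the 6 libraries lowest in choroid plexus markers (adjusted p = 0.306 for Egr3 and 0.214 for Homer1).

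**Figure D3:**
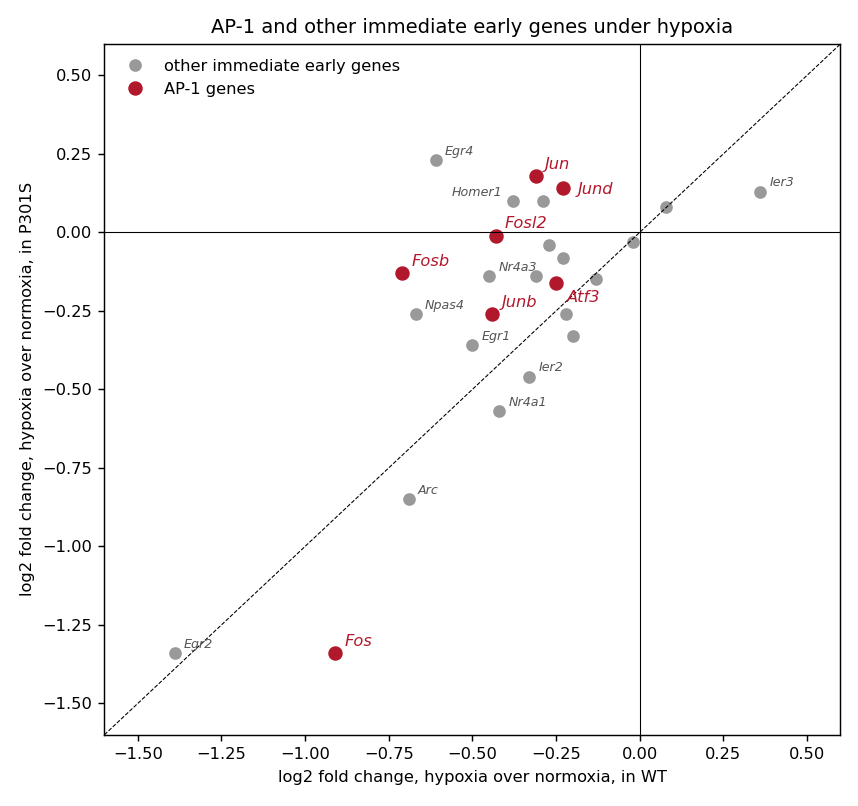
Log2 fold change for hypoxia over normoxia in P301S (vertical axis) against that in WT (horizontal axis) for the 7 AP-1 genes (red) and the 19 other immediate early genes measured (grey). The dashed line marks equal values. Fos, at −1.34 in P301S and −0.91 in WT, lies below the line, with Arc and Nr4a1 among the grey genes below it. Fosb, Fosl2, Jun, Junb, Jund and Atf3 lie above the line.

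Genes that act upstream of AP-1, restrain it or pair with it were set beside the members. Over all genes, edgeR called 0.41% for hypoxia in P301S, 0.0731% in WT and 1.33% on average. At an unadjusted p below 0.05 the shares were 13.8%, 11.6% and 16%, and DESeq2 called 363, 151 and 651 genes. Of 30 upstream regulators measured, 0 were called by edgeR for hypoxia in P301S, in WT or on average, with 7, 5 and 6 at an unadjusted p below 0.05 and 0, 1 and 1 called by DESeq2. Fits without 1 library called 0 to 1 of the upstream regulators in WT and on average. Srf could not be read, since other annotated genes cover 100% of it. Map2k7, 98.6% covered, was not tested. Other genes also cover 66.7% of Elk4, 56.1% of Mef2a, 51.6% of Elk1, 39.2% of Mrtfb and 30.8% of Elk3, which were read only in part. Of 13 feedback regulators 0 were called in these 3 comparisons by the main edgeR fit, with 4, 1 and 3 at an unadjusted p below 0.05 and 1, 0 and 1 called by DESeq2. Without the 6 libraries lowest in choroid plexus markers edgeR called 1 lower in P301S and 1 lower on average, and 45 and 60 of all genes. With a trend with gene length and GC content removed it called 1 lower in P301S, and 178 of all genes. Other genes cover 94.4% of the feedback gene Zfp36l1 and 36.7% of Zfp36. Dusp1, a phosphatase that switches off MAP kinases and is itself an early gene, had the lowest p of the 13 feedback regulators in P301S, at −0.52 (SE 0.124, adjusted p = 0.0602). None of the 13 AP-1 partners measured was called in these 3 comparisons by edgeR, with 1, 0 and 1 at an unadjusted p below 0.05 and 0 called by DESeq2.

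Among 16 genes described as AP-1 targets, Bdnf, the neurotrophin gene, was called higher with hypoxia in P301S, at 0.39 (SE 0.0709, adjusted p = 0.0161). It was also higher in the mean effect, at 0.25 (SE 0.0489, adjusted p = 0.0114), the opposite direction to Fos. The mean effect was not called without the 6 libraries lowest in choroid plexus markers (adjusted p = 0.103). This is 1 of 16, where 0.41% of all genes were called in P301S and 1.33% in the mean effect. In the main edgeR fit no other target was called in either comparison. With only the compared groups edgeR called 3 higher in P301S, and 69 of all genes. With a trend with gene length and GC content removed it also called 3 higher in P301S, and 178 of all genes. DESeq2 called 4 higher in P301S and 1 in the mean effect, where it called 363 and 651 of all genes. In P301S against WT in normoxia 2 of the 16 targets were called lower, where 3.78% of all genes were, the neuropeptide precursor gene Vgf at −0.47 (adjusted p = 0.0416) and the tau kinase gene Cdk5 at −0.21 (adjusted p = 0.049). Vgf kept the call in 21 of the 32 other fits and Cdk5 in 13. No target was called there with no filter on low counts, with only the compared groups or without the 6 libraries lowest in choroid plexus markers. In the mean P301S effect 2 of 16 were called lower, where 7.76% of all genes were: Cdk5 at −0.18 (adjusted p = 0.00916) and Gadd45b, a DNA damage response gene, at −0.23 (adjusted p = 0.0406). Cdk5 kept that call in 30 of the 31 other fits and Gadd45b in 14, and Gadd45b was not called without the 6 libraries (adjusted p = 0.0596).

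Between the genotypes 5 of the 30 upstream regulators were called in normoxia, where 6.35% of all genes were, and 1 in hypoxia, where 1.87% were. Mapk3, which encodes ERK1, a kinase that phosphorylates ELK1, was lower in P301S in normoxia (−0.27, SE 0.0561, adjusted p = 0.0069) and in hypoxia (−0.34, SE 0.0534, adjusted p = 0.00178). In normoxia the SRF partner gene Elk1 was also lower, at −0.28 (adjusted p = 0.0185), with 51.6% of it under another gene. The SRF coactivator gene Mrtfb, with 39.2% of it under another gene, at 0.49 (adjusted p = 0.0219), the p38 kinase gene Mapk14 at 0.34 (adjusted p = 0.0488) and the CREB kinase gene Camk4 at 0.33 (adjusted p = 0.024) were higher. Of the 32 other fits, Mapk3 kept its call in 31 in normoxia and in all 32 in hypoxia, Elk1 in 28, Camk4 in 27, Mrtfb in 26 and Mapk14 in 8. Without the 6 libraries the calls of Elk1, Mrtfb and Mapk14 were lost (adjusted p = 0.0789 for Elk1 and 0.0895 for Mapk14). Of the 13 partners 1 was called in hypoxia. Atf4, a factor of the stress response to amino acid shortage, was lower in P301S in hypoxia at −0.36 (SE 0.0943, adjusted p = 0.0497), a call kept in 14 of the 32 other fits and lost without the 6 libraries (adjusted p = 0.231).

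In the mean P301S effect 4 of the 30 upstream regulators, 2 of the 13 partners and 1 of the 13 feedback regulators were called, where 13.1% of all genes were. These shares are close to that background. The partners were Atf4 at −0.28 and Atf2 at 0.14, each kept in 29 of the 31 other fits. The upstream genes were Mapk3 at −0.31, Elk1 at −0.15, Mapk10, the neuronal JNK gene, at 0.10 and Rps6ka3, a kinase of CREB, at 0.17. The feedback gene Nab2, a corepressor of EGR factors with 43.8% of it under other genes, was called at −0.22. Of the 31 other fits, Mapk3 kept the call in all, Nab2 in 29, Elk1 and Mapk10 in 21 each and Rps6ka3 in 12. Without the 6 libraries Mapk3 alone of these 7 genes was called, with adjusted p of 0.0597 to 0.245 for the others. When a trend with gene length and GC content was removed, the calls kept among the listed genes named for P301S were Vgf in normoxia and Mapk3 in hypoxia and in the mean effect.

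Of the 21 pairs of members, 4 passed a test of correlation from library to library within the groups. Log2 CPM values were centred on their group means, correlated over 23 libraries and tested by permutation within groups, with p adjusted over 21 pairs. Fosb and Fosl2 were the closest pair (r = 0.76, permutation p adjusted 0.00294; rho = 0.77, adjusted 0.00252). Fosb and Jun had r = 0.56 and rho = 0.64 (permutation p adjusted 0.0268 and 0.00745), and Fosl2 and Jun r = 0.56 and rho = 0.60 (0.0279 and 0.0239). Fos went with Junb, at r = 0.55 and rho = 0.65 (permutation p adjusted 0.0268 and 0.013). Without the 2 libraries farthest from the median of the first gene, r was 0.70, 0.50, 0.60 and 0.59 for these pairs, and Fosb with Jun no longer passed.

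Fos was not called with any other member. Its r was −0.12 with Fosb, −0.30 with Fosl2, −0.21 with Jun, −0.42 with Jund and 0.29 with Atf3 (permutation p adjusted 0.705, 0.354, 0.451, 0.207 and 0.396). Within groups the called pairs joined Fosb, Fosl2 and Jun to each other and Fos to Junb. WT normoxia replicate 4 was the highest of its group for Fosb, Fosl2 and Jun.

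**Figure D4:**
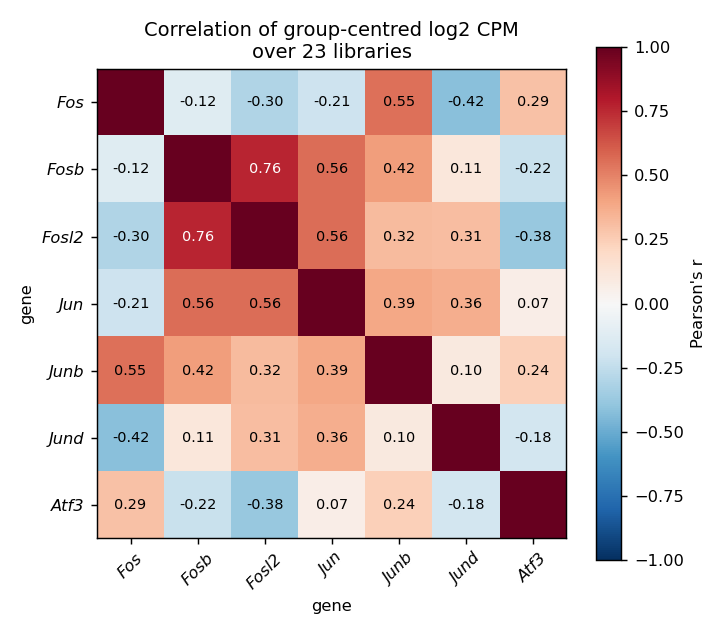
Pearson's r between the group-centred log2 CPM values of each pair of AP-1 genes over the 23 libraries, as colour and number, with genes on both axes. Fosb, Fosl2 and Jun form a block of positive values from 0.56 to 0.76, and Fos has a value of 0.55 with Junb.

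Genes with the most similar group-centred profile were ranked by r among 13338 genes of at least 1 CPM. For Fos they were Map3k1, a kinase upstream of JNK, and Arc (r = 0.83 each), Ccdc117 and Max (0.82 each) and the AMPA receptor auxiliary subunit gene Cacng4 (0.79). For Junb they were E2f3 (0.81), Egr4 (0.80), Pnrc1 (0.74), Gdap2 (0.72) and Arc (0.72). For Fosb they were Pim2 (0.92), Gpi1, Pcyox1l, Ncs1 and Ctif (0.88 to 0.85), and for Fosl2 Bri3bp (0.93), Cmtm4, Crtac1, Celf4 and Slc6a7 (0.85 to 0.84). For Jun they were Olfm1 and the heat shock gene Hspa1b (0.90 each), and Amph, Prdm8 and Rapgef2 (0.88 each). Arc stood in the lists of Fos and Junb and in no list of the other members. The lists of Jund (led by Ocel1, 0.81) and Atf3 (led by Rexo2, 0.71) rest on genes with few counts. These ranks describe likeness over libraries that share depth and tissue make-up, and were not tested.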

How the data were processed

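The authors deposited unnormalized counts of read pairs. Per the file headers, these were counted with featureCounts 1.6.2 over whole genes of Ensembl annotation 90 (GRCm38), with no strand setting, from alignment files named as having duplicates removed. The submitters' processing notes name HISAT2, mm10 and DESeq2 1.6.3. Per the labels the kit was stranded, so reads of both strands were counted together. The members, lists and tests were chosen with earlier results of these data known.

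Genes were kept by filterByExpr (minimum count 10), scaled by TMM (factors 0.961 to 1.03) and tested two-sided in edgeR 4.0.16 (R 4.3.3) with 1 robust quasi-likelihood model of 4 group means over 23 libraries and 7 contrasts. Calls used a Benjamini-Hochberg adjusted p below 0.05 over 17788 genes. Intervals are 95% normal ones and are somewhat narrower than the quasi-likelihood test implies. Log2 CPM used a prior count of 2, and correlations 100000 resamples. On simulated counts for hypoxia in WT, changes were planted in a small sample of genes, all above the level of Atf3. Of these, 72% of changes of 0.5 and 96% of changes of 1 (log2) were recovered, with 17735 genes tested. Each gene was simulated on its own, without variation shared among genes such as that in choroid plexus markers. The recovered shares therefore do not tell how often changes in the members would be found. Library pairs of a group had correlations of 0.976 to 0.993 and differed by more than sampling noise. Genes without a symbol held at most 0.0356% of counts. DESeq2 1.42.0 served as an alternative test. Named genes were all members, listed genes called in a contrast or with the lowest p of their list, and the 5 genes most like each member.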

Additional observations from a re-analysis of the deposited data

How the results depend on the processing

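No paired analysis was possible because replicate numbers were given in accession order and pair no samples. Fos kept its call for the mean hypoxia effect under every setting tried, and for hypoxia in P301S under every setting other than the 2 fits named above. Of the 7 members, DESeq2 called 2 for P301S in normoxia and 4 for hypoxia in WT. With only the compared groups 0 were called for hypoxia in WT, and with a covariate for the choroid plexus score 1 was called for P301S in normoxia. Without the 6 libraries lowest in that score 0 were called for hypoxia in WT, 1 for the mean hypoxia effect and 0 for the mean P301S effect, with 17 libraries left. With the length and GC trend removed 0 were called for the mean P301S effect. The cause was not tested. Fits without 1 library called 0 to 2 members for P301S in normoxia, 0 to 2 for hypoxia in WT, 0 to 1 for hypoxia in P301S, 1 to 3 for the mean hypoxia effect and 0 to 1 for the mean P301S effect.

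Values near 0 changed sign. With the length and GC trend removed, the mean P301S effect was 0.05 for Fos, 0.07 for Fosb, 0.04 for Jun and −0.01 for Mapk10, and hypoxia in P301S was 0.04 for Fosl2. Without the 6 libraries the mean P301S effect was 0.01 for Fos. Over fits without 1 library, P301S in hypoxia ran from −0.37 to 0.02 for Fos and −0.04 to 0.11 for Jund, hypoxia in P301S from −0.05 to 0.07 for Fosl2, the interaction from −0.06 to 0.21 for Atf3 and mean hypoxia from −0.10 to 0.03 for Jund. The mean P301S effect ran from −0.10 to 0.10 for Fos and −0.04 to 0.04 for Fosb. Over all genes, hypoxia in WT called 13 by edgeR, 151 by DESeq2, 4 with no filter, 4 with only the compared groups and 0 without the 6 libraries. With only the compared groups, P301S in normoxia called 368 and P301S in hypoxia 182, and with the covariate hypoxia in P301S called 46, mean hypoxia 133 and the interaction 13. The interaction called 7 by edgeR, 52 by DESeq2, 4 with no filter, 0 without the 6 libraries or with the trend removed and 0 with legacy dispersions, an alternative chosen after seeing the data. Without the 6 libraries, calls over all genes were 389 beside 1130 for P301S in normoxia, 16 beside 333 for P301S in hypoxia, 45 beside 73 for hypoxia in P301S, 60 beside 236 for mean hypoxia and 1288 beside 2333 for mean P301S. With the trend removed these 5 counts were 440, 132, 178, 429 and 1070, with no filter 682, 213, 38, 151 and 1719, and by DESeq2 1639, 854, 363, 651 and 2796. Over fits without 1 library, calls over all genes ran from 365 to 2069 for P301S in normoxia, 91 to 618 for P301S in hypoxia, 7 to 154 for hypoxia in P301S, 2 to 29 for hypoxia in WT, 0 to 13 for the interaction, 85 to 371 for mean hypoxia and 1550 to 2913 for mean P301S. At 477 counts Atf3 allows no statement on small changes.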
